A study of Oryza sativa with 27 samples.

Results

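The comparison described here set the larger, top part of rice (Oryza sativa) ovaries collected 1 and 2 days after pollination (DAP) against the same part of unpollinated ovaries. It used 7 of the 27 arrays of the series: 3 of the unpollinated top part, 2 at 1 DAP and 2 at 2 DAP, and the 4 arrays after pollination were read together and by day. The members were chosen by sample label alone, and all 57258 rice probe sets of the Affymetrix array entered. The samples came from paddy-grown plants at Mishima, Japan, with no genotype, transgene or treatment other than pollination in the labels. The labels place the embryo in the smaller, bottom part and describe the top part as mainly endosperm. The unpollinated samples are labelled embryo and ovary, so they held ovary tissue and, before fertilisation, no endosperm. The labels call arrays of 1 group biological replicates without saying which plants or panicles they came from. Every test took the spread of a probe set from all 27 arrays in their 10 groups. The p-values therefore measure spread within groups across the whole series, not that of the 7 arrays alone, and it may in part be technical.

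Cereal endosperm starts from the fertilised central cell, whose nucleus divides repeatedly without walls between the daughter nuclei, so that a syncytium lines the embryo sac before cell walls form. Around it the nucellus is broken down and the ovary wall grows into the pericarp, which is green in young rice grains. Stigma, style and ovary wall also receive the pollen tube during this time.

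Values are the deposited intensity of a probe set, on a linear scale on which 1 equals the 75th percentile of the same array. Tests used log2(value + 0.13), which makes a log2 change or fold between groups too small for genes at low values. A difference between the changes of the top and the bottom part can come out too small or too large for such genes. A gene was called higher or lower at a Benjamini-Hochberg adjusted p under 0.05 in limma over the 29332 probe sets tested. The brightest probe set stood for a gene, which gave 15275 genes, of which 2156 carried a name other than a locus number. No level is compared between genes.

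The 7 arrays fell into the labelled groups. Over probe sets, arrays of 1 group correlated with r between 0.919 and 0.976, those of 1 and 2 DAP with each other between 0.940 and 0.964, and unpollinated with pollinated arrays between 0.839 and 0.896. The unpollinated arrays scattered more (root mean square deviation of 0.339 to 0.376 on the log2 scale) than those of 1 DAP (0.181) and 2 DAP (0.220). Deviations from a group's own mean come out smaller with 2 arrays than with 3, so part of this gap is group size. Pairs of unpollinated arrays correlated at 0.919 to 0.929, against 0.976 for the pair of 1 DAP and 0.965 for that of 2 DAP. The 18S ribosomal RNA control was high on replicate 2 of 1 DAP (12.7) and replicate 2 of 2 DAP (18.8) and between 0.127 and 0.811 on the other 5 arrays. Counts that moved by over 1.5 times without these 2 arrays, and the larger counts, are given below also without them, a choice made after seeing the data. Unpollinated replicate 3 had a higher 25th percentile (0.213) than the other arrays (0.112 to 0.160).

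Marker genes were read beside the label. The 2 pollen markers were at a summed level of 0.956 to 2.75 before pollination and 0.355 to 0.467 after it. Most of that sum was the beta-expansin OsEXPB9. Being higher before pollination, it cannot serve as a measure of pollen. Of the endosperm markers, OsNF-YB-1 (LOC4330587), a subunit of an endosperm transcription factor complex, gave 0.174, 0.171 and 0.313 before pollination and 0.154, 0.207, 0.157 and 0.195 after it. Granule-bound starch synthase OsGBSS1 (LOC4340018) and the glutelin Gt2 (LOC4327027) were no higher than 0.108 on any of the 4 pollinated arrays. The summed level of the 6 endosperm markers was 12.2 to 12.4 in unpollinated arrays, 14.1 to 19.2 at 1 and 2 DAP, and 73.9 to 155 at 4 DAP. That sum came from the other 3 genes, the starch genes AGPS2 (5.45 to 8.08 after pollination) and Rbe1 (LOC4342117, 4.33 to 7.63) and GLB1 (LOC4337720, 3.95 to 5.85), which were at 3.07 to 5.42 before it. None of the 5 endosperm markers tested was called in limma, and GLB1 is also on the ovule and nucellus list, so it counts in both sums. The 8 ovule and nucellus markers summed to 79.8 to 91.3 before pollination and to 116 to 168 after it, a difference carried by OsAsp1. Without OsAsp1 the sums were 75.9 to 84.6 before pollination, 70.3 to 88.7 at 1 DAP and 71.3 to 86.1 at 2 DAP. Embryo markers summed to 5.65 to 6.54 before pollination and to 6.13 to 8.49 after it. Most of that sum was ROC1 (LOC4344832), at 4.48 to 5.81 and then 5.49 to 7.82, with no call (0.37, adjusted p = 0.207). The 1 embryo marker called in limma, Oskn1 (LOC4333973), was lower (-0.93, adjusted p = 0.00613), at values near the pseudocount. Since these are whole tissue samples, fewer cells of a type and less RNA per cell cannot be told apart in any result below.

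Pollination was followed by a wide change in the top part. Of the 15275 genes, 2794 were called higher (18.3% of those tested) and 1688 lower (11.1%), and the median log2 change of all genes was 0.07, so that a list with about these shares moved no more than genes in general. The 4 pollinated arrays all lay above the 3 unpollinated ones for 3511 genes (23.0%) and all below them for 2104 (13.8%). Large changes were more often rises: 282 called genes rose and 74 fell by over 4-fold, and 12 rose and 8 fell by over 16-fold. Most of these had only a locus number, since 63 of the 282 rises and 15 of the 74 falls carried a name. Over probe sets, 4003 were higher and 3293 lower (24.9% called), and 5024 were called without the 2 arrays of high 18S signal.

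The largest named rise was that of PBZ1 (LOC4352491), a pathogenesis-related protein of the PR10 family. It gave 0.115, 0.0800 and 0.187 in the unpollinated arrays, then 51.8 and 48.3 on day 1 and 43.2 and 19.8 on day 2. The groups did not come near each other, and the pooled log2 change was 7.24 ± 0.40 (SE, adjusted p = 1.48e-10), with 5.95 at a pseudocount of 0.5 and 7.98 at 0.03. The next 5 were OsWRKY76 (LOC4347069), a WRKY repressor known from blast infection (4.32), the P450 gene CYP71Z7 (LOC4329726) of the phytoalexin pathway (3.81), OsBURP03 (LOC4324159), a BURP-domain protein (3.79), the aspartic protease OsAsp1 (LOC4349962, 3.67) and ZB8 (LOC4330040), a phenylalanine ammonia-lyase at the entry to phenylpropanoids (3.46).

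OsAsp1 is related to barley nucellin, a protease of the nucellus. Its values were 6.63, 3.72 and 3.93 before pollination, then 43.4 and 45.5 on day 1 and 81.4 and 80.5 on day 2, a 12.7-fold rise (log2 change 3.67 ± 0.28, adjusted p = 1.55e-08). Both days lay far above the reference, and the arrays of a day lay close together. Another aspartic protease, AP25 (LOC4331874), known from cell death in the rice tapetum, went from 1.60 ± 1.10 (SD, n = 3) to 14.1 ± 4.95 (SD, n = 4). OsBURP03 gave 1.36, 0.903 and 1.69 and then 19.4, 16.9, 24.3 and 17.5, about the same on both days.

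The remaining named rises were the transcription factor OsNAC3 (LOC4342753, log2 change 3.35), the ABC transporter OsPDR9 (LOC4327728, 3.30), DAO (LOC4336150), a dioxygenase that oxidises auxin (3.28), the lipoxygenase LOX1.1 (LOC4334049, 3.20), and OsUGE-3 (LOC4347638), a UDP-glucose epimerase (3.12). DAO was the least clearly separated of these: unpollinated replicate 1 gave 5.46, just under the lowest pollinated array at 5.78, while replicates 2 and 3 gave 0.245 and 0.347. Its log2 change was 4.52 without unpollinated replicate 1 and 2.57 without replicate 2, and it was called in both cases.

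**Figure D1:**
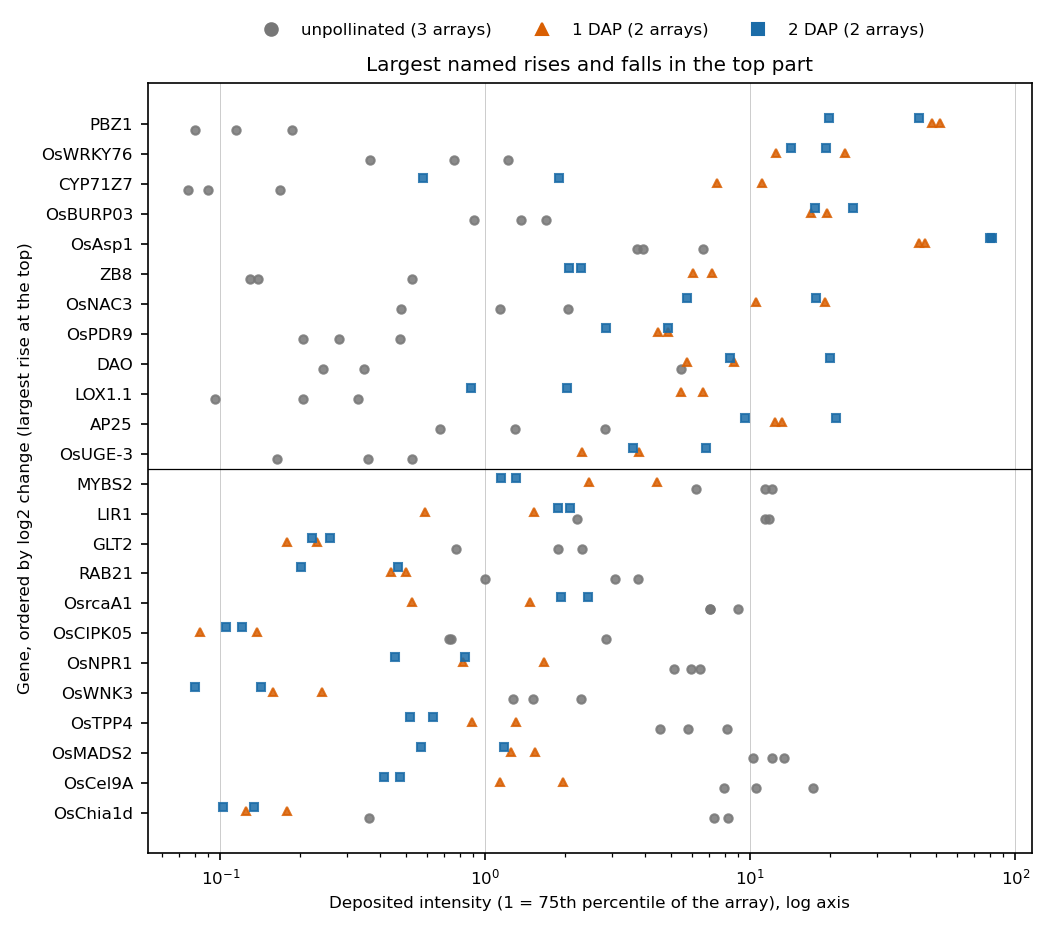
Deposited intensity (log axis, 1 = 75th percentile of the array) of the 12 largest named rises (above the line) and 12 largest named falls (below it) in the top part, with 1 point per array: grey circles unpollinated (3 arrays), orange triangles 1 DAP (2), blue squares 2 DAP (2). Pollinated and unpollinated arrays do not overlap for any of the 24 genes, by the rule that chose them, and the unpollinated arrays of DAO, OsChia1d and LIR1 are spread widely.

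Among the falls, OsChia1d (LOC4338720), a chitinase, had the largest fitted change but an uneven reference: 8.24, 7.29 and 0.365 before pollination against 0.102 to 0.178 after it (log2 change -3.57 ± 0.58, adjusted p = 1.56e-04). Without unpollinated replicate 3 it was -4.90, and without replicate 1 or 2 it was -2.86 or -2.95. The endoglucanase OsCel9A (LOC4324643) fell more evenly, from 10.5, 17.2 and 7.94 to 1.97 and 1.14 on day 1 and 0.475 and 0.415 on day 2 (log2 change -3.56 ± 0.31, adjusted p = 9.39e-08). OsMADS2 (LOC4325001), a floral identity factor of the PISTILLATA type, went from 12.1, 13.4 and 10.2 to 1.54, 1.25, 1.18 and 0.574 (-3.31 ± 0.28, adjusted p = 6.83e-08). By the rule that chose these genes, all 4 pollinated arrays lay below the lowest unpollinated array of each. For OsChia1d that array stood apart from the other unpollinated ones.

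The other named falls included signalling and sugar genes. The trehalose phosphatase OsTPP4 (LOC4330753) went from 4.56, 8.13 and 5.84 to between 0.519 and 1.31 (log2 change -2.73), and OsNPR1 (LOC4327315), a co-regulator of salicylic acid responses, from 6.48, 5.97 and 5.16 to between 0.457 and 1.67 (-2.59). The kinases OsWNK3 (LOC4342585) and OsCIPK05 (LOC4327093) changed by -2.66 and -2.44, GLT2 (LOC4339561) and the dehydrin RAB21 (LOC4350454) by -2.23 each, and MYBS2, a MYB repressor in sugar signalling, by -2.16. The leaf genes OsrcaA1 (LOC4351224), a Rubisco activase, and LIR1 (LOC4326442), a light-regulated chloroplast protein, changed by -2.33 and -2.17. OsCIPK05 was at -1.84 without unpollinated replicate 3, and with all probe sets of a gene averaged OsWNK3 was at -1.37. LIR1 was at 11.4, 11.8 and 2.22 before pollination. It lost the call without unpollinated replicate 1 (-1.80, adjusted p = 0.0665), unpollinated replicate 2 (-1.77, adjusted p = 0.0783) or replicate 1 of 1 DAP (-1.87, adjusted p = 0.0592), and stood at -2.94 without unpollinated replicate 3.

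Genes of nuclear division rose together. Of 8 mitotic cyclin and B-type kinase genes tested, 7 were called higher and 1 lower, with a median log2 change of 1.85 against 0.07 over all genes, and without the 2 arrays of high 18S signal the count was again 7. CycB2;2 (LOC4342121), a cyclin of the G2 to mitosis step, gave 1.67, 1.32 and 0.902 and then 10.9, 8.21, 7.90 and 6.29 (log2 change 2.58 ± 0.39, adjusted p = 7.03e-05). CycB2;1 (LOC4336670) changed by 2.05 and CDKB2;1 (LOC4346016), the plant-specific mitotic kinase, by 1.92, from 3.81, 3.14 and 2.65 to between 10.4 and 16.4. The exception was the A-type cyclin CYCA1-4 (LOC4338177), from 1.25, 1.48 and 1.12 to between 0.754 and 0.821 (-0.62). All 5 histone H2B genes matched by name were higher, by 1.15 to 1.87, and H2B.7 (LOC4324500) went from 9.24, 9.75 and 5.44 to 37.0, 33.7, 23.5 and 24.6. No pollinated array of an H2B gene overlapped the reference.

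The regulators of the step into the cycle, activators and inhibitors read as 1 list, showed no common rise. Of 19 D-type cyclin, CDK inhibitor and E2F genes, 1 was higher and 2 were lower, with a median of 0.08. The highest change in the list, 1.86, was not called. The inhibitor KRP4 (LOC4348872) fell from 3.74, 3.05 and 5.32 to 1.11, 1.40, 0.965 and 0.899 (log2 change -1.75 ± 0.22, adjusted p = 8.37e-06), and CycD4;1 (LOC4347313) changed by -0.90. CycD3;2 (LOC4346394) was called higher (1.02), but not without unpollinated replicate 1 or 3 or replicate 1 of either day (adjusted p = 0.0726, 0.108, 0.0791 and 0.101). DNA replication stood close to the background, with 7 of 33 genes higher and 1 lower (median 0.35). Its called members were the single-strand binding subunits OsRPA70b (LOC4332052, 2.11) and OsRPA32 (LOC4331236, 1.59), the sliding clamp OsPCNA (LOC4331062, 1.47) and 4 of the MCM helicase genes. The 7 became 3 or 4 when unpollinated replicate 1 or 3 or replicate 1 of either day was left out, and 12 without unpollinated replicate 2.

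Cytoskeleton genes also rose in larger numbers than the background. Of 55 tubulin, actin, kinesin and formin genes 31 were higher and 3 lower, at a median log2 change of 0.89, and 25 were higher and 1 lower without the 2 arrays of high 18S signal. The leading genes were kinesins, the motors that move along microtubules. KIN12C (LOC4333349) went from 2.28, 1.55 and 1.49 to 10.9 ± 4.09 (SD, n = 4) (2.49 ± 0.29, adjusted p = 3.57e-06), KIN14R (LOC4352796) changed by 2.22 and KIN10C (LOC4339007) by 2.17. Kinesins of the KIN12 class act at the phragmoplast, the array that builds the new wall in dividing plant cells.

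Genes of chromatin marks changed in part. Of 10 Polycomb and DNA methylation genes, 3 were higher and 1 was lower, with a median of -0.11. The chromomethylase OsCMT3a (LOC4347954) went from a mean of 1.05 ± 0.280 (SD, n = 3) to 8.53, 4.91, 4.79 and 3.70 (log2 change 2.21 ± 0.29, adjusted p = 1.19e-05). The maintenance methyltransferase OsMET1b (LOC4342575) went from 1.46, 2.67 and 1.42 to 11.7, 7.79, 6.85 and 5.76 (2.05 ± 0.31, adjusted p = 6.21e-05). Its paralogue OsMET1a (LOC4334435) changed by 0.60 and lost the call without unpollinated replicate 1 (adjusted p = 0.0507) or replicate 1 of 1 DAP (adjusted p = 0.0656). The gene lower was OsSET1 (LOC4332612, -0.43), and the list had 0 falls when any array other than unpollinated replicate 3 was left out. The Polycomb gene fie (LOC4344620) stayed at 4.89 to 7.57 before and 4.93 to 6.12 after pollination (-0.21 ± 0.18, adjusted p = 0.438).

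**Figure D2:**
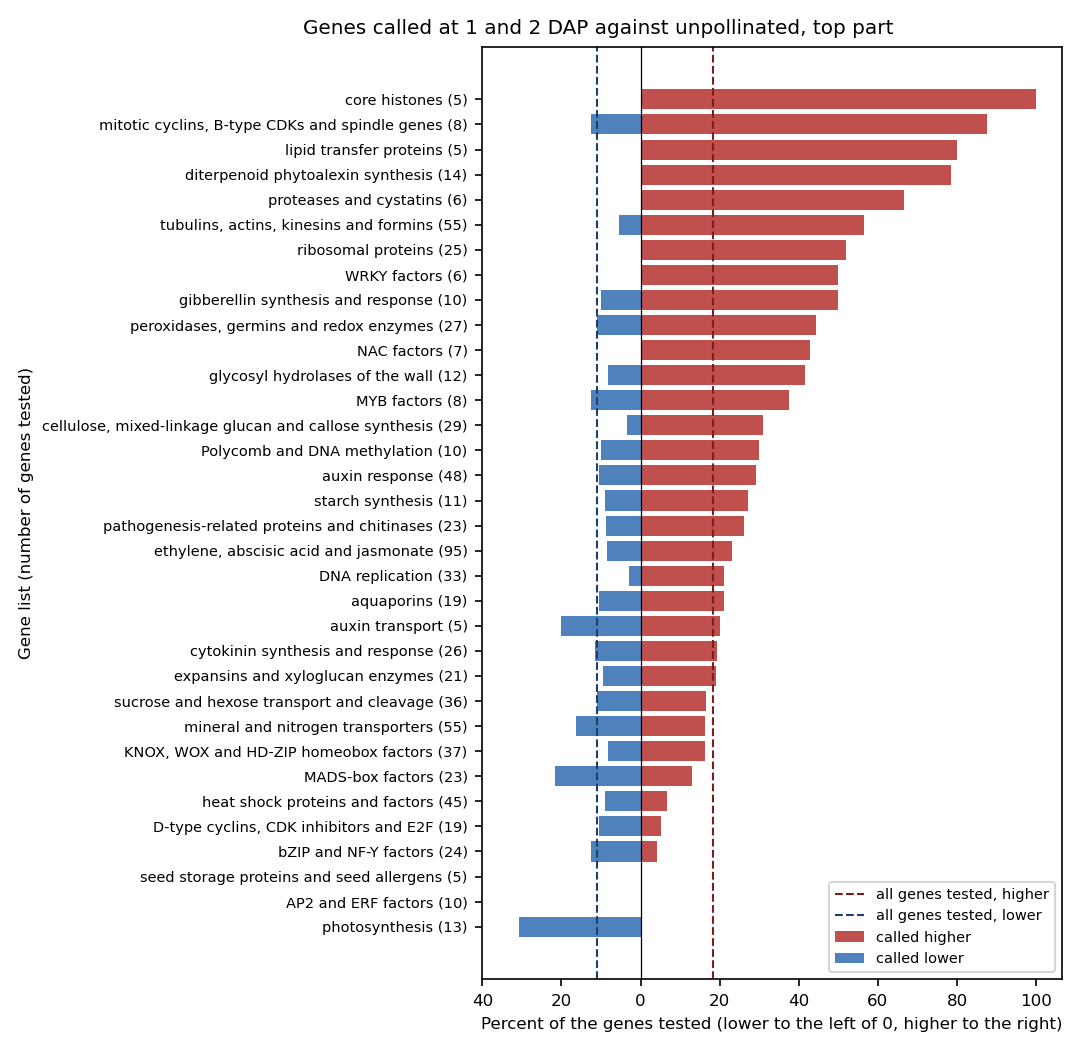
Percent of the genes tested in each list that were called higher (red, right of 0) or lower (blue, left of 0) at 1 and 2 DAP together against unpollinated in the top part, with the number of genes tested in brackets and dashed lines at the shares over all 15275 genes (18.3% higher, 11.1% lower). H2B histones, mitotic cyclins, lipid transfer proteins, phytoalexin synthesis, proteases and the cytoskeleton reach far beyond the dashed line for rises, and photosynthesis has no rise.

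Single MADS-box genes, a family that specifies floral organs and ovules, changed in both directions. Of 23 MADS-box genes 3 were higher and 5 lower (median -0.28). The rises were below the share over all genes (18.3%) and the falls above it (11.1%). The falls were OsMADS2, OsMADS16 (LOC4342047, -1.80) of the other petal and stamen class, the C-class gene OsMADS3 (LOC9271572, -1.39), OsMADS1 (LOC4332059, -0.84) and OsMADS15 (LOC4342214, -0.55). Their number was 3 without unpollinated replicate 1 or replicate 2 of 2 DAP. The 15 markers of floral organs and ovary wall include some of these genes. They summed to 219 to 285 before pollination, 195 to 206 at 1 DAP and 255 to 256 at 2 DAP. That sum hides members that moved apart, with 2 called higher and 4 lower. FOR1 (LOC4343645) fell from 48.9, 38.6 and 48.3 to between 8.74 and 22.6 (-1.65, adjusted p = 0.00761). CAB2R, bright before pollination (22.1 to 40.7), was at 6.34 and 5.19 at 1 DAP. The part of tissue makeup in the falls was not tested. OsMADS29 (LOC4328443), which promotes nucellus breakdown, rose from 3.12, 2.91 and 1.89 to 11.5, 9.33, 9.30 and 7.88 (log2 change 1.81 ± 0.31, adjusted p = 2.21e-04). OsMADS21 (LOC4324888), of the ovule identity class, rose from 4.70, 4.73 and 4.58 to between 8.38 and 10.3 (1.00), and OsMADS8 (LOC4347517) by 0.52. OsMADS13 (LOC4351753), also of the ovule class, was at 14.2 to 20.2 and then at 10.6 to 16.0 (-0.41, adjusted p = 0.262).

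WRKY and NAC genes, 2 families of plant transcription factors with many stress-induced members, were raised in part. Of 6 WRKY genes 3 were higher and 0 lower. OsWRKY76 gave 1.22, 0.366 and 0.759 and then 22.8, 12.5, 14.2 and 19.3, OsWRKY24 (LOC4327518) 0.560, 0.577 and 0.947 and then between 2.75 and 2.93. OsWRKY62 (LOC4347070) changed by 2.32 and was not called without the 2 arrays of high 18S signal. Of 7 NAC genes 3 were higher, OsNAC3, OsNAC5 (LOC4349963, 1.41) and OsNAC2 (LOC4336052, 1.24). None of 10 AP2 and ERF genes was called in limma, and their median was -0.21.

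Of 8 MYB genes 3 were higher and 1 was lower. OsGAMyb (LOC4327362), the gibberellin-regulated MYB factor, rose from 1.45, 1.26 and 1.97 to 4.54, 4.25, 3.92 and 3.60 (log2 change 1.33 ± 0.18, adjusted p = 1.96e-05). OsMyb4 (LOC4336407) changed by 2.18, by 1.46 without unpollinated replicate 2 and by 2.83 without replicate 3. Of 37 homeobox genes 6 were higher and 3 lower (1 lower without the 2 arrays of high 18S signal), near the background. Among them OsHox2 (LOC4340070) was at 1.48 and OSH45 (LOC4345191) at -1.47. Of 24 bZIP and NF-Y genes 1 was higher, OsHAP5B (LOC4341785, 0.90), and 3 were lower, led by OsbZIP08 (LOC9266109, -1.43). Without unpollinated replicate 1 or 3 the single bZIP and NF-Y rise became 3, and the falls were 1 without unpollinated replicate 1, without replicate 2 of 1 DAP or without both arrays of high 18S signal.

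Diterpenoid phytoalexins are antimicrobial compounds that rice makes from gibberellin-like precursors. Of 14 genes of their synthesis 11 were higher and 0 lower in the pooled comparison (median log2 change 1.32), and 10 were higher without the 2 arrays of high 18S signal. OsCPS2 (LOC9266189), which makes a precursor of the phytocassanes, gave 0.0653, 0.122 and 0.237 before pollination, then 6.46 and 3.83 on day 1 and 1.07 and 0.342 on day 2 (2.90 ± 0.57, adjusted p = 8.36e-04). CYP71Z7 gave 0.0897, 0.0754 and 0.168, then 11.1 and 7.49, then 1.90 and 0.580. Of the momilactone genes, OsCPS4 (LOC4335090) changed by 2.20, CYP99A3 (LOC4335091) by 2.15, CYP99A2 (LOC4335096) by 1.84 and OsMAS (LOC4335093) by 1.40. OsCPS1 (LOC4329013), the paralogue used for gibberellin, was not called (-0.24, adjusted p = 0.584), and OsKO1 (LOC4341347) was at -0.42 (adjusted p = 0.104). Because levels before pollination lay near or below the pseudocount, these folds depend on it: OsCPS2 was at 1.98 with a pseudocount of 0.5 and at 3.51 with 0.03.

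Other defence proteins were mixed. Of 23 pathogenesis-related and chitinase genes 6 were higher and 2 lower (median 0.02), and 1 was higher without unpollinated replicate 2. Without the 2 arrays of high 18S signal 3 were higher and 1 was lower. Cht6 (LOC4329920), a chitinase, gave 0.733, 0.215 and 0.741 and then 2.74, 5.77, 1.89 and 10.3, highest on the arrays of high 18S signal. It lost the call without unpollinated replicate 2 (adjusted p = 0.114), replicate 2 of 1 DAP (0.0793) or replicate 2 of 2 DAP (0.111), and stood at 3.36 without replicate 1 of 2 DAP. Of 27 peroxidase, germin and redox genes 12 were higher and 3 lower, with 7 higher without unpollinated replicate 2 or without replicate 1 of 1 DAP, and 1 lower without replicate 2 of 2 DAP. With both arrays of high 18S signal left out, 8 were higher and 1 was lower. The germin-like protein OsGER3 (LOC4344838) went from 0.218, 0.112 and 0.243 to 3.66, 2.17, 2.64 and 2.00 (3.09 ± 0.70, adjusted p = 0.00293), and OsGER5 (LOC4345763) fell (-1.60). The 45 heat shock genes gave 3 higher and 4 lower (1 and 2 without the 2 arrays of high 18S signal), below the background in the direction of rises. Of 6 protease and cystatin genes 4 were higher and 0 lower, and the cystatin OC-III (LOC4338771), an inhibitor of cysteine proteases, went from 9.25, 5.49 and 5.15 to between 13.0 and 14.5 (1.09).

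Auxin genes changed at several steps. OsTAR2 (LOC4325198), an aminotransferase of auxin synthesis and the one gene of that step tested, rose from 0.247, 0.182 and 0.210 to 1.39, 1.23, 1.78 and 1.26 (log2 change 2.16 ± 0.55, adjusted p = 0.00650). The efflux carrier OsPIN3a (LOC4326565) fell from 5.12, 6.89 and 3.99 to between 1.57 and 2.01 (-1.52 ± 0.29, adjusted p = 5.94e-04), and the kinase OsPID (LOC4352785), which directs such carriers, rose by 1.10. Of 48 auxin response genes 14 were higher and 5 lower (median 0.49). The Aux/IAA repressors led: IAA14 (LOC4334431, 2.77), IAA1 (LOC4334069, 2.70) and IAA10 (LOC4331149, 2.49). IAA1 gave 2.44, 4.08 and 1.02 and then 11.3, 12.1, 22.9 and 15.9. The 5 falls became 3 without unpollinated replicate 1 or 3, replicate 1 of 1 DAP or replicate 2 of 2 DAP, and 2 without replicate 1 of 2 DAP. With both arrays of high 18S signal left out, 10 genes were higher and 3 lower.

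Gibberellin and jasmonate genes included marked rises. Of 10 gibberellin genes 5 were higher and 1 was lower, among them GA20OX3, a gibberellin 20-oxidase of synthesis, from 1.11, 0.637 and 0.466 to 3.56, 4.32, 3.60 and 5.81 (2.40 ± 0.29, adjusted p = 5.01e-06), and EUI1 (LOC4339131), which inactivates gibberellins (1.53 ± 0.17, adjusted p = 1.58e-06). The gibberellin receptor gene gid1 changed by 0.90 and the F-box gene GID2 by 1.16. The remaining rise was OsKO4, which the phytoalexin list also holds, and the fall was OsKS1 (-0.47). Of 95 ethylene, abscisic acid and jasmonate genes 22 were higher and 8 lower (median 0.21), near the background. The rises without unpollinated replicate 2 numbered 12 and without replicate 1 of 1 DAP 14. The falls were 4 or 5 without unpollinated replicate 1 or 2 or replicate 1 of either day. With both arrays of high 18S signal left out there were 13 rises and 5 falls. The largest changes called in this list were those of the lipoxygenase LOX1.1, the jasmonate repressor OsJAZ8 (LOC4347164, 2.71) and the reductase OsOPR4 (LOC4340486, 2.57). OsJAZ8 was unevenly low before pollination (1.12, 0.239 and 3.46), and gave 1.87 without replicate 2 and 3.51 without replicate 3 of that group. Of 26 cytokinin genes 5 were higher and 3 lower, near the background. Called members included the response regulator OsRRB2 (LOC4328516) at -1.12 and OsRR6 (LOC4337372) at 1.36. OsRR6 was not called without unpollinated replicate 2 (adjusted p = 0.102). The cytokinin rises were 2 without unpollinated replicate 3 or replicate 1 of either day and 3 without unpollinated replicate 2 or replicate 2 of 2 DAP, and the falls were 1 without unpollinated replicate 1. With both arrays of high 18S signal left out there were 2 rises and 1 fall.

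Wall genes changed in both directions. Of 29 genes of cellulose, mixed-linkage glucan and callose synthesis 9 were higher and 1 was lower, and 5 were higher without the 2 arrays of high 18S signal. OsCslA1 (LOC4328585), a mannan synthase type, went from 0.892, 1.70 and 1.86 to 7.98 ± 2.72 (SD, n = 4), lowest at 1 DAP at 5.07 (2.32 ± 0.24, adjusted p = 8.26e-07), and OsCslD4 (LOC107276048) rose by 1.87. Of 21 expansin and xyloglucan genes 4 were higher and 2 lower, near the background. OsEXLA4 (LOC4342109) was at 1.87 and the beta-expansin OsEXPB9 (LOC4349301), also the 1 pollen marker tested, at -1.80. The 4 were 2 without unpollinated replicate 1 or replicate 1 of either day. OsEXPA2 (LOC4327568) changed by 1.98, but lost the call without unpollinated replicate 1 or 2, either array of 1 DAP or replicate 1 of 2 DAP (adjusted p = 0.0548 to 0.0919). Of 12 wall hydrolase genes 5 were higher and 1 was lower, 3 higher without unpollinated replicate 2 or replicate 1 of 1 DAP, with the endoglucanase OsCel9E (LOC4330637) at 1.21 against -3.56 for OsCel9A.

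Single sugar transport genes rose, while no storage protein gene was called. Of 36 sugar transport and cleavage genes 6 were higher and 4 lower (median 0.16), near the background, and 4 and 2 without the 2 arrays of high 18S signal. OsSWEET11 (LOC4346153), a sucrose exporter that feeds the developing grain, rose from 11.1, 5.88 and 7.22 to 15.0 and 19.2 on day 1 and 45.5 and 46.1 on day 2 (log2 change 1.82 ± 0.22, adjusted p = 5.50e-06). The cell wall invertase OsCIN2 (LOC4335790) rose from 1.27, 1.18 and 1.09 to between 3.32 and 5.59 (1.84), and OsSWEET1a (LOC4324848) by 1.70, or by 0.69 with its probe sets averaged. Of 11 starch genes 3 were higher, SS1 (LOC9269493, 1.27), SSII-3 (LOC4340567, 1.39) and AGPR (LOC4333458, 0.52). OsAGP1 (LOC4345858), matched by its symbol only, was lower (-1.01). Only 1 was higher without replicate 1 of 1 DAP, and SSII-3 was not called without unpollinated replicate 2 (adjusted p = 0.147), replicate 1 or 2 of 1 DAP (0.0539 and 0.0735) or replicate 2 of 2 DAP (0.128). None of 5 storage protein and allergen genes was called in limma, and the glutelin gene GluB5 (LOC4328968) stayed at or below 0.248 on the 7 arrays.

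Lipid transfer proteins, small extracellular proteins of cuticle and seed coat layers, had the highest median of the 35 lists. Of 5 tested 4 were higher, at a median of 2.56, and 4 again without the 2 arrays of high 18S signal. LTP (LOC4351318) went from 1.44, 1.31 and 2.35 to 22.2, 11.6, 13.9 and 9.61 (log2 change 2.95 ± 0.49, adjusted p = 1.90e-04), and LTP110-A (LOC4349601) from 4.62, 4.42 and 6.13 to 22.9, 22.7, 44.2 and 35.4 (2.56 ± 0.38, adjusted p = 5.66e-05). LTP2-B (LOC4351317) changed by 2.97, or 3.72 without unpollinated replicate 3 and 2.07 with its probe sets averaged. Family members of this kind can share signal, so LTP and LTP2-B may not be separate measurements.

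Single transporter genes of water and ions rose or fell, while the counts were near the background. Of 55 mineral and nitrogen transporter genes 9 were higher and 9 lower (median 0.01), beside 18.3% and 11.1% of all genes. The phosphate transporter OsPT8 (LOC4348741) rose from 0.512, 0.110 and 0.623 to 3.24, 3.78, 2.59 and 2.65 (log2 change 2.70 ± 0.37, adjusted p = 2.14e-05), and the potassium channel OsAKT1 (LOC4326245) from 0.497, 0.365 and 0.658 to between 3.08 and 4.29 (2.60). The 9 falls became 4 without unpollinated replicate 3, 5 without any 1 of replicates 1 and 2 of 1 DAP and replicate 2 of 2 DAP, and 3 without the 2 arrays of high 18S signal. Of 19 aquaporins 4 were higher and 2 lower, near the same shares. OsPIP2;7 (LOC4347729) rose from 0.415, 0.381 and 0.273 to 1.90, 1.94, 4.61 and 3.29 (2.58), while OsPIP2;2 (LOC4330049) was at -2.01 and not called without unpollinated replicate 1 (-1.56, adjusted p = 0.0674). The 4 became 2 without unpollinated replicate 2 or replicate 1 of either day, and the 2 became 0 without unpollinated replicate 1 or without both arrays of high 18S signal. Of 25 ribosomal protein genes 13 were higher and 0 lower, by at most 1.10 (median 0.48). They numbered 8 without the 2 arrays of high 18S signal, 5 after quantile normalization, 7 without unpollinated replicate 1, 6 without unpollinated replicate 3 or replicate 1 of 2 DAP, and 8 without replicate 2 of 1 DAP.

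Photosynthesis genes were called in 1 direction, lower. Of 13 genes 4 were lower in the pooled comparison (median -0.63), 2 without the arrays of high 18S signal. These 4 were OsrcaA1, RCABP69 (LOC4343583, -0.91), OsGLK1 (LOC4340977, -0.82), a regulator of chloroplast genes, and the photosystem I gene PSAH (LOC4339593, -0.63). The count fell to 1 without unpollinated replicate 1 or replicate 1 of 2 DAP and to 2 without unpollinated replicate 2 or either array of 1 DAP, and without unpollinated replicate 2 there was also 1 rise. RCABP69 lost the call without any array other than replicate 1 of 1 DAP (adjusted p = 0.0541 to 0.171), and OsGLK1 without any unpollinated array or replicate 1 of either day (0.057 to 0.152). For this list the days differed, as shown next.

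The days were compared with each other, and each with the unpollinated group, whose 3 arrays both comparisons share. At 1 DAP 2035 genes were higher (13.3%) and 1129 lower (7.39%). At 2 DAP 2073 were higher (13.6%) and 1293 lower (8.46%). At both days 2093 genes were called the same way and 6 opposite ways. Between the days 128 genes were higher (0.838%) and 58 lower (0.380%) at 2 DAP. Like the other tests, this contrast rests on spread borrowed from the other groups, and here each side has only 2 arrays. Over probe sets it made 269 calls (0.917%), against 17.3% at 1 DAP and 18.5% at 2 DAP, and between 38 and 70 when 1 of the 4 arrays was left out. Without both arrays of high 18S signal it made 21. The between-day values below are therefore a direction seen on all 4 arrays whose call mostly needs each of them.

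Calls among phytoalexin genes came at 1 DAP. Of the 14 genes 12 were higher at 1 DAP (median log2 change 2.18), 0 were called at 2 DAP (median 0.45), and 5 were lower at 2 than at 1 DAP (median of the list -1.78 against -0.04 over all genes). OsKO4 (LOC4341343), an oxidase of the phytoalexin branch, gave 0.143, 0.150 and 0.207 before pollination, then 3.70 and 2.66 on day 1, 0.357 and 0.314 on day 2, and 0.112 and 0.0989 on day 3 (2 against 1 DAP -2.82 ± 0.55, adjusted p = 0.0134). CYP99A2 (-2.67), OsCPS4 (-2.33), OsKSL4 (LOC4335094, -1.92) and OsMAS (-1.51), which all act on momilactones, moved with it. Their arrays of 1 DAP lay above both arrays of 2 DAP in each case. The glucanase OsGLU15 (LOC4345463) had the same course, 1.22 and 2.23 at 1 DAP against 0.190 and 0.321 at 2 DAP (-2.23). With any 1 of the 4 arrays left out, OsKO4 reached adjusted p = 0.239, CYP99A2 0.355, OsCPS4 0.240 and OsKSL4 0.467, with each between 0.0506 and these. OsGLU15 was not called without replicate 2 of 1 DAP (0.143) or replicate 1 of 2 DAP (0.145).

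Several photosynthesis genes had a low at 1 DAP. Of the 13 genes 5 were lower at 1 DAP (median -1.13) and 1 at 2 DAP, and 3 were higher at 2 than at 1 DAP (median 1.16). The chlorophyll-binding protein CAB2R (LOC4324599) gave 40.7, 30.8 and 22.1 before pollination, then 6.34 and 5.19 on day 1, 42.5 and 36.1 on day 2, and 97.0 and 91.8 on day 3 (2 against 1 DAP 2.74 ± 0.49, adjusted p = 0.00638). The arrays of 2 DAP lay within or just above the range of the reference. RCABP69, also of the light-harvesting family, gave 2.58 and 1.65 at 1 DAP and 10.1 ± 1.27 (SD, n = 2) at 2 DAP (2.21), and PSAH changed by 1.86. Outside the list, OEE3 (LOC4343515), of the oxygen-evolving complex, changed by 1.94 between the days and was lower in the pooled comparison (-1.27, adjusted p = 0.00156). Without 1 of the 4 arrays the adjusted p was 0.0639 to 0.107 for CAB2R, 0.0714 to 0.201 for RCABP69 and 0.0737 to 0.112 for OEE3. OsrcaA1 stayed lower at 2 DAP (-1.75 against unpollinated, adjusted p = 0.0254).

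Other genes were first raised at 2 DAP. The metallothionein OsMT2c (LOC4326409) gave 2.75, 2.72 and 0.895, then 1.05 and 1.07, then 15.4 and 10.3 (2 against 1 DAP 3.41 ± 0.49, adjusted p = 8.42e-04), and 30.2 and 38.7 at 3 DAP. OsC3H1 (LOC4327128) gave 0.166 and 0.206 at 1 DAP and 1.47 and 1.06 at 2 DAP (2.13 ± 0.32, adjusted p = 0.00142), and 10.4 to 13.8 at 4 DAP. OsSWEET11 rose again from 1 to 2 DAP (1.43 ± 0.29, adjusted p = 0.0163) and stood at 77.5 to 93.0 at 3 and 4 DAP. OsMT2c and OsC3H1 were called with any 1 array left out, and neither was called without both arrays of high 18S signal. None of the mitotic, H2B or cytoskeleton genes was called between the days, and their median changes were -0.43, -0.41 and -0.19.

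**Figure D3:**
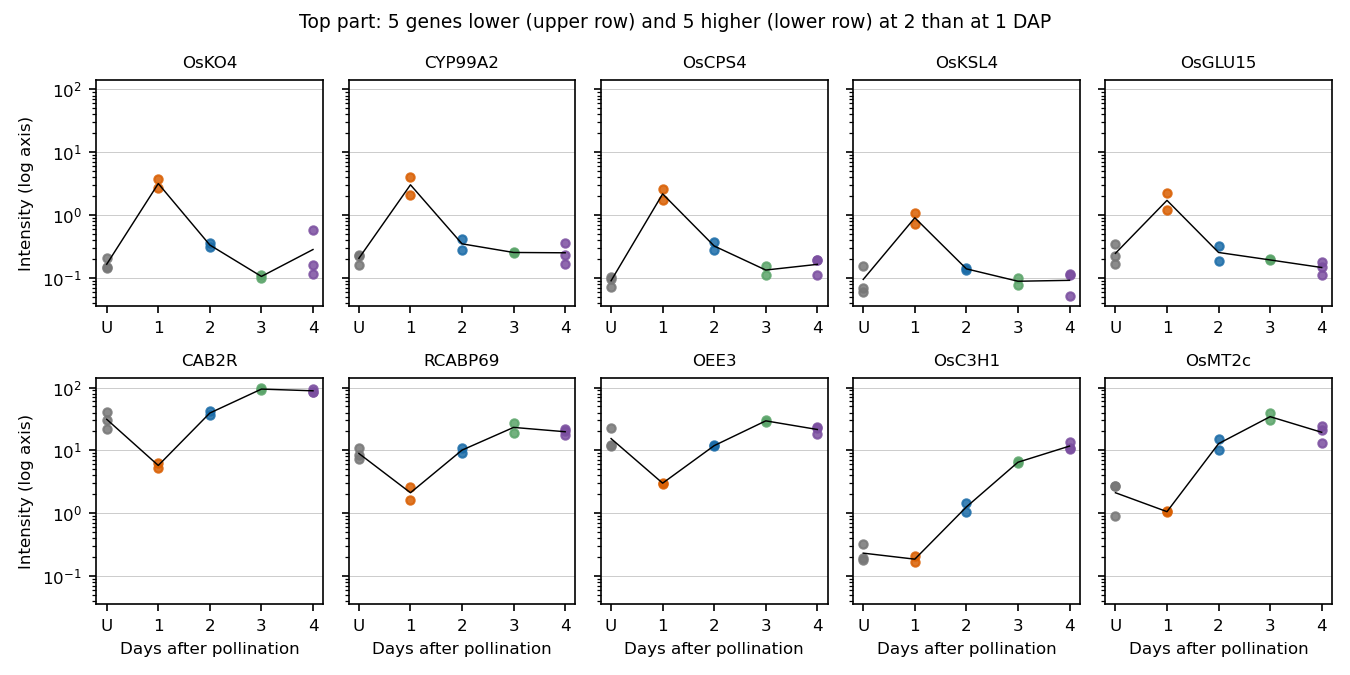
Deposited intensity (log axis) in the top part before pollination (U) and on days 1 to 4, 1 point per array, with black lines through the group means. OsKO4, CYP99A2, OsCPS4, OsKSL4 and OsGLU15 (upper row) are highest at 1 DAP, and CAB2R, RCABP69 and OEE3 (lower row) have a low at 1 DAP, while OsC3H1 and OsMT2c are first raised at 2 DAP. The values at 3 and 4 DAP are a description with no test.

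Whether a change was particular to the top part was tested as the difference between its change and that of the bottom part, over 7 and 9 arrays. Of 15275 genes 338 changed more upwards in the top than in the bottom part (2.21%) and 93 more downwards (0.609%). The mitotic, H2B, cytoskeleton and phytoalexin lists had 0 genes called here, and median differences of -0.35, -0.08, 0.08 and -0.85. Over probe sets limma made 609 calls (2.08%), and 3392 had an unadjusted p under 0.05.

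Several of the differences came from genes high in the unpollinated bottom part and low in the unpollinated top part. OsGER3 stood at 45.3 ± 17.1 (SD, n = 3) in the bottom part and 0.191 ± 0.0694 (SD, n = 3) in the top part before pollination, and at 9.05 and 2.62 after it (difference 5.50 ± 0.96, adjusted p = 0.00198). The expansin OsEXPA1 (LOC4335222) was at 1.29, 0.795 and 2.20 in the top part before pollination and at 0.578 to 0.999 after it, with no call (-0.74, adjusted p = 0.302), while the bottom part went from 9.82 to 0.467 (difference 3.29 ± 0.67, adjusted p = 0.00828). The phosphate exporter family gene OsPHO1;3 (LOC4341088) stayed between 0.151 and 0.248 on the 7 top arrays. In the bottom part it went from 3.80 to 0.332 (difference 2.97 ± 0.18, adjusted p = 6.21e-09). Its top values lay below the filter cut of 0.264 and near the pseudocount, where a fall could hardly show. The difference therefore describes the fall in the bottom part only. OsGLU15 differed by 3.51 and OsEXPB9, lower after pollination in both parts, by 2.48. OsEXPB9 went from 1.42 to 0.274 in the top part and from 8.90 to 0.333 in the bottom part, so the top part had less room to fall. OsChia1d differed by 3.69, by 2.36 without top unpollinated replicate 3 and by 4.40 or 4.31 without replicate 1 or 2. It went from 5.30 to 0.135, at the pseudocount, in the top part and from 115 to 0.712 in the bottom part. OsChia1d thus also had less room to fall in the top part. Its difference was not called with a pseudocount of 0.03 (adjusted p = 0.0509), in a fit of the compared arrays alone (0.0776) or without the 2 arrays of high 18S signal (0.0783), and that of OsEXPA1 was not called without those 2 arrays (0.051).

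Other genes rose in the top part towards the level of the bottom part. IAA1 went from 2.51 to 15.6 in the top part and from 29.0 to 24.2 in the bottom part (difference 2.95 ± 0.46, adjusted p = 7.44e-04). LTP went from 1.70 to 14.3 and from 11.3 to 13.4 (2.56 ± 0.67, adjusted p = 0.0495), and LTP110-A from 5.06 to 31.3 and from 18.4 to 27.8 (2.01 ± 0.52, adjusted p = 0.0442). OsSWEET11 had the same form, from 8.08 to 31.5 and from 20.1 to 29.9 (1.43 ± 0.30, adjusted p = 0.0104). OsGAMyb rose in the top part and had means of 2.14 and 2.40 in the bottom part (1.19 ± 0.24, adjusted p = 0.00835).

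For 6 genes the difference had the other sign. The ammonium transporter OsAMT3;2 (LOC4334717) went from 0.157 to 2.21 in the bottom part and from 0.156 to 0.316 in the top part (difference -2.33 ± 0.32, adjusted p = 1.98e-04). The cytosolic glutamine synthetase OsGS1;2 (LOC4332108) went from 2.40 to 7.59 and from 3.44 to 2.00 (-2.33 ± 0.39, adjusted p = 0.00134). The reductase OsOPR5 (LOC4340485), of the jasmonate pathway family, went from 0.480 to 4.64 and from 0.273 to 0.292 (-2.58 ± 0.40, adjusted p = 7.44e-04). OsPDR1 (LOC4346210) differed by -1.91 and OsMADS2 by -1.56. The auxin-conjugating enzyme OsGH3-4 (LOC4339234) differed by -1.99 (adjusted p = 0.0288) but lost the call when any 1 of 6 arrays was left out, replicates 1 or 2 of the unpollinated bottom group, unpollinated replicate 1 or replicate 1 of 1 DAP of the top part, or either top array of 2 DAP (adjusted p = 0.061 to 0.105).

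**Figure D4:**
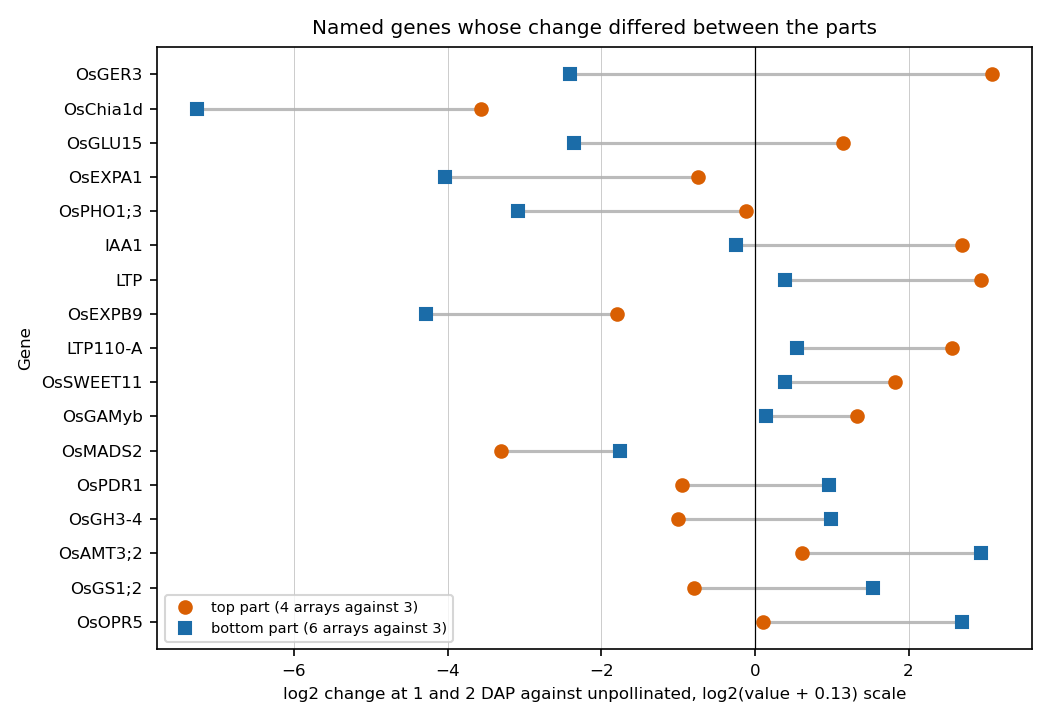
Log2 change at 1 and 2 DAP against unpollinated, on the log2(value + 0.13) scale, in the top part (orange circles, 4 arrays against 3) and the bottom part (blue squares, 6 arrays against 3) for the 17 named genes whose change differed between the parts. For the upper 11 genes the top part lies to the right of the bottom part and for the lower 6 to the left.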

How the data were processed

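Intensity values were used as deposited by the authors, 1 per probe set and array; per the submitters' processing notes the authors used GCOS 1.3. The algorithm that summarised probes, its background step and any genome build were not given in the sources used here. Each array appeared, from its values, to be divided by its own 75th percentile. Depth does not apply to arrays, and the number of arrays limits the precision. Values were tested as log2(value + 0.13), the pseudocount being the 20th percentile of all rice values. Probe sets with a mean above 0.264 (29332) entered 1 limma fit (3.58.1, R 4.3.3) of 10 group means over all 27 arrays, with an intensity trend (17 residual and 3.68 prior degrees of freedom), and the 123 control probe sets did not. Tests were two-sided. The fit was tested on simulated data. Python 3.11.15, numpy 2.4.6, pandas 2.3.3 and matplotlib 3.10.9 were used.

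A table paired 22436 rice probe sets with 1 gene, 95 with several and 34727 with none; all 17905 genes were found in a RefSeq table, used for names only. Where several probe sets of a gene were tested (2187 genes), 14 were called in opposite directions in the pooled comparison. Named were the 12 largest rises and falls with a name and no overlap of arrays, up to 3 called genes per list, the 5 largest per direction in the other comparisons and 8 fixed genes; other members named with a list count were chosen after their values were seen. The 35 lists and 5 marker lists were patterns on symbols and synonyms, and 56 accidental matches were dropped by name. Members and lists were chosen with earlier results of these data known. Equal replicate numbers did not pair arrays throughout, and the alternatives tried, with a replicate block among them, are in the closing section.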

Additional observations from a re-analysis of the deposited data

Results flagged for a closer look

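For 17 named genes the change at 1 and 2 DAP differed between the top and the bottom part in the limma test of that difference. All are described in the report, and none is weighed here. The log2 change in the top part minus that in the bottom part was above 0 for 11 genes: OsGER3 (5.50), OsChia1d (3.69), OsGLU15 (3.51), OsEXPA1 (3.29), OsPHO1;3 (2.97), IAA1 (2.95), LTP (2.56), OsEXPB9 (2.48), LTP110-A (2.01), OsSWEET11 (1.43) and OsGAMyb (1.19). OsChia1d and OsEXPA1 lost the call under some alternatives, as did OsGH3-4 below. It was below 0 for 6 genes: OsMADS2 (-1.56), OsPDR1 (-1.91), OsGH3-4 (-1.99), OsAMT3;2 (-2.33), OsGS1;2 (-2.33) and OsOPR5 (-2.58). These genes were named because they differed, so their number says nothing about how common such differences were.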

How the results depend on the processing

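The pooled comparison made 7296 calls over probe sets, and its count stayed within 1.5 times of that under every alternative run: other pseudocounts, no filter, quantile normalization, only the arrays compared, a replicate block, 18S signal as a covariate, array quality weights and leaving out arrays (5440 to 6700 with 1 array left out). Against 5068 calls at 1 DAP, 5425 at 2 DAP, 269 between the days and 609 for the difference between the parts, fitting only the arrays compared gave 2973 calls at 1 DAP (67.1% of them higher, against 56.9%), 2738 at 2 DAP (68.0% against 55.3%) and 461 between the days. Array quality weights, whose estimation did not fully converge, gave 1044 between the days. Without both arrays of high 18S signal, added after seeing the data, the counts were 2331 at 1 DAP, 2359 at 2 DAP, 21 between the days and 341 for the difference between the parts. Leaving out 1 array gave 1883 to 4750 calls at 1 DAP, 2297 to 5108 at 2 DAP, 38 to 70 between the days and 421 to 693 for the difference; where a day then had 1 array, it was assumed to vary like the other groups. A replicate block gave 8043 pooled calls, 5816 and 6235 at 1 and 2 DAP, 394 between the days and 867 for the difference. Equal numbers did not pair the arrays throughout, as the correlation of deviations among the top groups ran from -0.546 to 0.465. It was highest between 1 and 2 DAP, whose replicate 2 arrays both had the high 18S signal. Whether equal numbers of these 2 days share a source was not tested, and the block is given here only. Of 128 called results for single genes, 34 lost the call under at least 1 alternative, 27 of them by leaving out 1 array, and none reversed. For the difference between the parts, OsChia1d, OsGH3-4 and OsEXPA1 lost the call under at least 1 alternative, with the adjusted p in the report except for OsGH3-4 with only the arrays compared (0.0669) and without both arrays of high 18S signal (0.063). A pseudocount of 0.03 or 0.5 moved 33 of the 129 single-gene values by over 1.5-fold. The 34727 rice probe sets with no gene in the table were not named.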
